A study of Rattus norvegicus with 12 samples.

Results

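Genes of fatty acid oxidation and ketone synthesis were followed in primary rat hepatocytes given interferon alpha. The members were 35 genes listed by name for their known roles in burning fatty acids, making ketone bodies or controlling both, by a rule that uses no measured value, though earlier results of these data were known when the list was drawn up. Of these, 34 genes were measured, through 50 of the 31042 probe sets tested, and each is given by the brightest of its probe sets, judged on the mean of the 12 arrays. The whole data set named 14217 genes. Acaa1a, the peroxisomal thiolase, was covered by a probe set annotated to 2 genes, Acaa1a and Acaa1b, and is therefore not measured here as a gene.

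The cells were hepatocytes of Wistar rats, freed from the liver by collagenase and cleaned on Percoll, and they carried no genetic change. On the day after isolation they received 250 U/ml rat interferon alpha or were left without it. The arrays formed 4 groups of 3, namely control at 3 h, interferon alpha at 3 h, control at 6 h and interferon alpha at 6 h. The labels call the 3 arrays of a group biological replicates and number them 1 to 3, but do not say whether each number is a separate animal, so that p-values measure the spread between these samples. Such cells are a short-term model: they are cut off from the hormones and fatty acids that blood brings to the liver.

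The liver burns fatty acids in fasting and turns the resulting acetyl-CoA into ketone bodies for other organs. A fatty acid is bound to coenzyme A, carried into the mitochondrion as a carnitine ester, and shortened by repeated rounds of dehydrogenation, hydration, dehydrogenation and thiolysis. Very long chains are shortened in peroxisomes, and electrons from the dehydrogenases reach the respiratory chain through the electron transfer flavoprotein. Ppara encodes a nuclear receptor that binds fatty acids and, paired with a retinoid X receptor, switches on many of these genes. Its DNA element, called DR1, is a 6-base motif repeated in the same direction with 1 base between the copies.

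Levels are log2 values of the robust multi-array average (RMA), which evens out background and brightness between arrays. Probe sets differ in brightness at equal RNA, so levels are compared between groups and never between genes. The 3 values of a group are given in the order of replicates 1, 2 and 3. Of the 34 members, 31 had a mean above the upper quartile of all probe sets (7.54) and 33 above their median (5.20). The exception was Acot1, a cytosolic acyl-CoA thioesterase, at 3.48, under the lower quartile of the arrays (3.84 to 3.93). Acot1 measured 3.37, 4.00 and 3.36 in control cells at 3 h, 3.22, 4.12 and 3.21 in treated cells at 3 h, 3.34, 3.47 and 3.25 in control cells at 6 h and 3.32, 3.66 and 3.43 in treated cells at 6 h. Only the replicate 2 arrays at 3 h lay above the lower quartile, and values this low limit what any comparison of Acot1 can show. Acot1 and Acot2 are close paralogs, and how far their probe sets tell them apart was not tested.

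**Figure D1:**
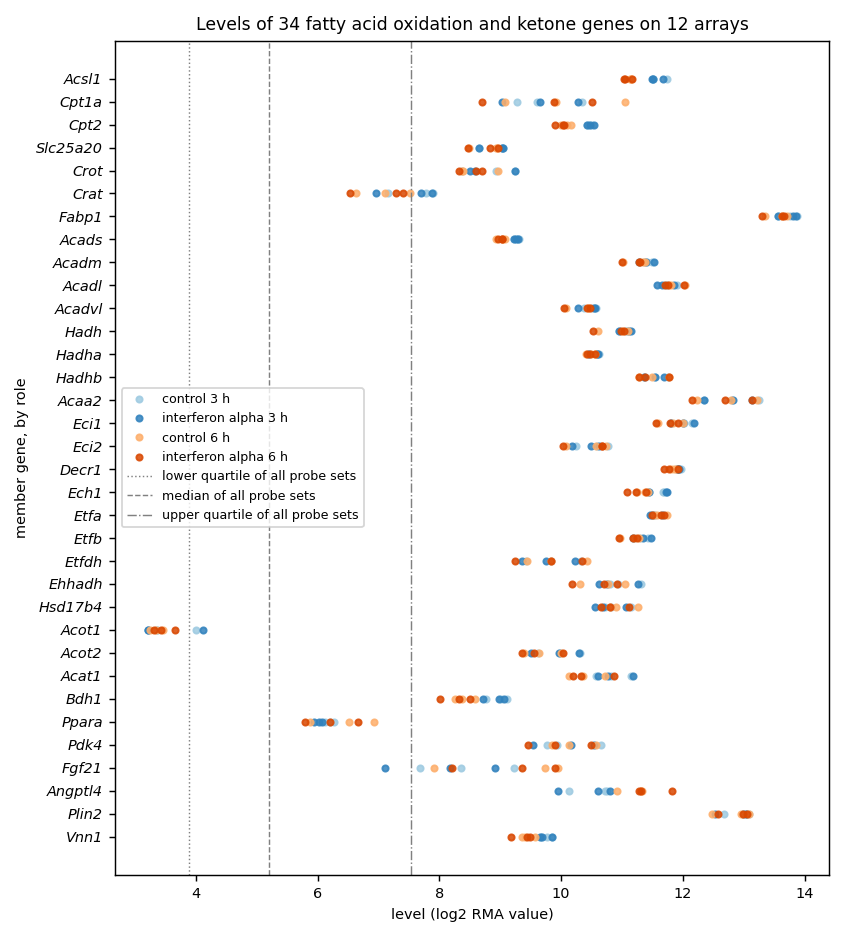
Levels of the 34 members on the 12 arrays, as log2 RMA values on the horizontal axis, with 1 row per gene ordered by role and 1 point per array coloured by group. Vertical lines mark the lower quartile, the median and the upper quartile of all probe sets. Acot1 lies by the lower quartile and Ppara and Crat between the median and about the upper quartile, and the other members lie above the upper quartile in nearly all arrays.

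The labelled cell type was checked on marker genes. All 9 hepatocyte markers measured were bright, with means of 11.17 to 14.67, and their summed level stayed between 16.49 and 16.65 on the 12 arrays. All 5 endothelial and all 6 lymphocyte markers lay below the median of all probe sets, as did 5 of 7 stellate cell markers. Of 7 macrophage and Kupffer cell markers, 3 lay below that median, Adgre1 (3.09), Cd163 (3.72) and Csf1r (5.09), and 4 above it, Clec4f (5.75), Cd68 (6.95), Lyz2 (10.54) and Cd14 (11.90). Of 3 cholangiocyte markers, Epcam was at 11.28 with Krt7 at 3.93 and Krt19 at 3.47. The summed level of each of the 7 lists overlapped between treated and control arrays at both times, and between 3 h and 6 h in control cells. Single hepatocyte markers could still separate. Hnf4a in treated cells lay wholly above control at 6 h (mean 11.49 against 11.15), and Alb wholly below at 3 h (14.67 against 14.70). Replicate 1 stood apart for Fabp4, an adipocyte and endothelial gene (6.97 to 7.75 against 3.84 to 4.26 in the other arrays), for Lyve1 (4.58 to 5.80 against 3.31 to 3.60) and for Clec4f (6.45 to 6.64 against 5.02 to 5.65). Other numbers stood apart for other markers. Cd68 was low in replicate 2 (5.76 to 6.22 against 7.11 to 7.78) and Lyz2 in replicate 3 (9.62 to 9.77 against 10.80 to 11.08). The part of these differences in the results was not tested. In bulk samples, fewer cells of a type and less RNA per cell cannot be told apart. As a check of the treatment, Cxcl10, an interferon-induced chemokine, was higher by 4.98 log2 at 3 h and 4.36 at 6 h (limma, adjusted p = 0.0372 and 0.00365).

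Levels of many members differed between replicate numbers. The 3 replicate-number means of a member differed by 0.0490 log2 (Acads) to 1.58 (Fgf21), with a median of 0.426. This range was larger than the size of the mean interferon change in 34 of 34 members and than that of the time change in 26. A range of 3 means of 4 arrays tends to exceed a difference of 2 means of 6 arrays even without any effect. The shares over all probe sets were not computed, so these counts are no result about the members. Cpt1a, the carnitine palmitoyltransferase that sets the rate of entry into the mitochondrion, measured 9.61, 10.34 and 9.27 in control cells at 3 h, 9.65, 10.27 and 9.02 in treated cells at 3 h, 9.91, 11.05 and 9.08 in control cells at 6 h and 9.89, 10.50 and 8.70 in treated cells at 6 h. Replicate 2 was the highest and replicate 3 the lowest in every group. Acaa2, the mitochondrial thiolase that releases acetyl-CoA, measured 13.25, 12.81 and 12.34 in control cells at 3 h, 13.13, 12.82 and 12.35 in treated cells at 3 h, 13.22, 12.79 and 12.23 in control cells at 6 h and 13.13, 12.70 and 12.15 in treated cells at 6 h. Replicate 1 was the highest and replicate 3 the lowest in every group, and the 4 groups overlapped. Etfdh, which passes electrons from the flavoprotein to ubiquinone, was highest in replicate 2, with a mean of 10.33 against 9.81 in replicate 1 and 9.36 in replicate 3. For this reason each comparison is given from the limma fit of the 4 groups and, where a call differs, also from the fit that adds the replicate number as a term, here called the replicate block.

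**Figure D2:**
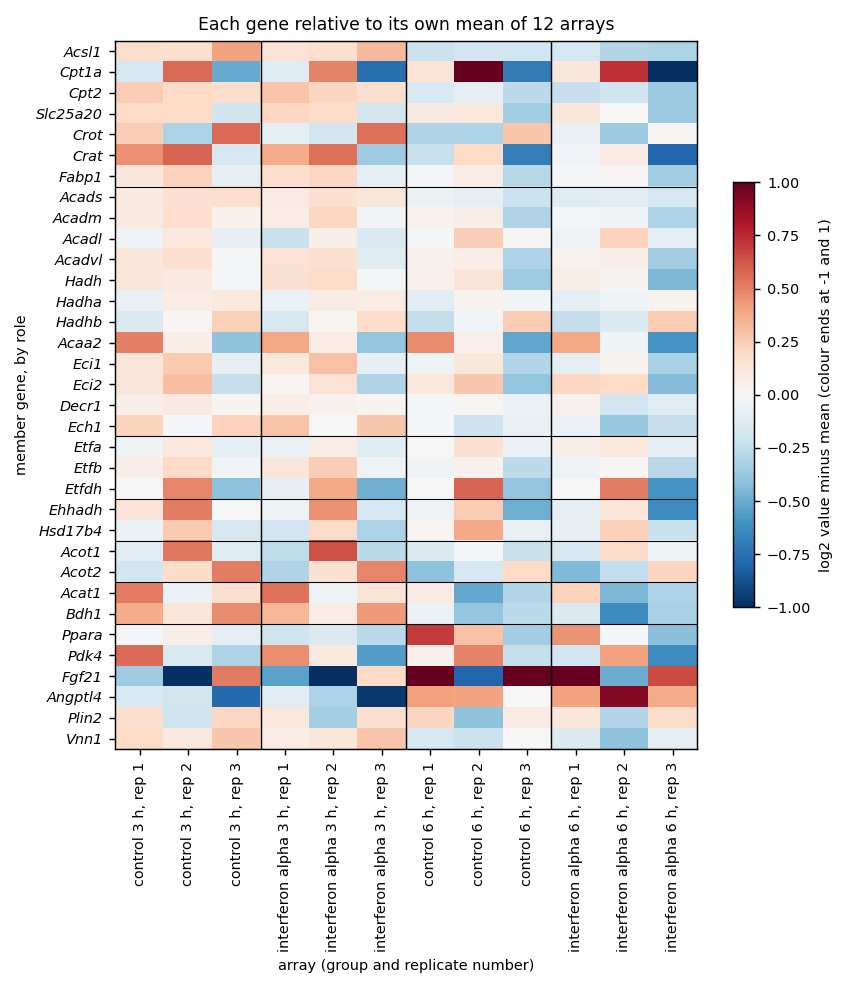
Each member's log2 value minus its own mean over the 12 arrays, with rows by role and columns by group and replicate number. Red is above and blue below the mean, and the colour ends at -1 and 1, which Fgf21 and Cpt1a exceed on some arrays. Cpt1a, Etfdh and Acaa2 follow the replicate number, while Acsl1, Cpt2, Acads, Bdh1, Vnn1 and Angptl4 separate the 3 h from the 6 h columns.

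The main question of the study design was what interferon alpha changed. On the brightest probe set of each gene, 0 of 34 members passed an adjusted p of 0.05 at 3 h, at 6 h, for the mean of both times or for the difference between times, without or with the replicate block (limma). The same held with the number taken as a separate block within each time, where the lowest adjusted p was 0.108, for Ppara and the mean. Of all probe sets tested, 0.00644% were called at 3 h, 0.387% at 6 h, 0.435% for the mean and 0% for the difference without the block, 0.0966%, 1.1%, 1.1% and 0% with it, and 0.0322%, 1.1%, 1.29% and 0% with the block within each time. A count of 0 among 34 is near these shares and is no result about the members. At an unadjusted p under 0.05 in limma, 0 members were found in all 4 comparisons without the block, where 2.95% of all probe sets were higher and 1.53% lower for the mean. With the block there was 1 member higher at 6 h, Angptl4, and 1 lower for the mean, Hsd17b4, against 4.34% higher and 3.84% lower of all probe sets at 6 h and 4.88% and 5.88% for the mean. With the block within each time, 2 were lower at 3 h (Ppara and Fgf21), 1 higher (Angptl4) and 3 lower (Cpt1a, Ppara and Pdk4) at 6 h, 5 lower for the mean (Cpt1a, Ehhadh, Hsd17b4, Ppara and Fgf21) and 1 higher for the difference (Angptl4). The shares of all probe sets in that fit were 5.49% lower at 3 h, 5.44% higher and 6.38% lower at 6 h, 9.07% lower for the mean and 3.76% higher for the difference. None of these passed after adjustment.

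A probe set of Cpt1a other than its brightest was the only further one of the members called with interferon alpha, and in 1 of the 3 fits. This probe set, at a mean of 9.03, measured 8.82, 9.42 and 8.42 in control cells at 3 h, 8.68, 9.27 and 8.11 in treated cells at 3 h, 9.53, 10.34 and 8.55 in control cells at 6 h and 9.23, 9.85 and 8.15 in treated cells at 6 h. In each pair of the same number the treated array was lower. With the block within each time it fell by 0.40 log2 at 6 h (limma, adjusted p = 0.0392) and by 0.30 for the mean (0.0277), against 1.1% and 1.29% of all probe sets called. It was not called with the block over both times (adjusted p = 0.436 and 0.313) or without the block (1.00 for both). The brightest probe set of Cpt1a had -0.32 and -0.20 and was called in none of the 3 fits.

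For the mean of both times 30 of 34 members (88.2%) had a lower value with interferon alpha, and their median change was -0.042 log2. Over all 14217 genes the median was -0.018, with 58.7% lower. Among the 7767 genes at least as bright as Ppara, the dimmest member other than Acot1, the median was also -0.042, with 73.1% lower. Most members lie well above that floor, so these genes are not matched to them in brightness. At 3 h 26 members were lower, with a median of -0.034, and at 6 h 30 were, with a median of -0.047. Single arrays turned the sign of both medians: at 3 h the median was 0.0029 without control replicate 2 and 0.015 without treated replicate 3, and at 6 h it was 0.0090 without control replicate 2 and 0.027 without treated replicate 3.

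The intervals of the mean change bound only the mean of both times on the brightest probe sets. They do not bound a change at a single time or on another probe set. The other probe set of Cpt1a had -0.30 ± 0.0996 log2 (SE) for the mean and -0.40 ± 0.141 at 6 h with the block. With the replicate block, the 95% interval reached 0.0987 to 0.384 log2 to either side of the change, with a median of 0.114. For 33 of the 34 members the interval lay within 0.5 log2 on either side of 0 with the block, and for 26 without it. The exception with the block was Fgf21, a hormone that the fasting liver secretes, at -0.20 (-0.59 to 0.18).

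Ppara had the lowest change after Fgf21 at 3 h. It measured 6.20, 6.28 and 6.13 in control cells at 3 h, 6.02, 6.08 and 5.95 in treated cells at 3 h, 6.92, 6.51 and 5.87 in control cells at 6 h and 6.66, 6.20 and 5.80 in treated cells at 6 h. At 3 h all 3 treated arrays lay below all 3 controls, as in 2.97% of all probe sets, and no other member did. At 6 h 0 members did, against 3.46% of all probe sets. A count of 1 of 34 is close to the first share. Ppara was lower in the treated array of all 6 pairs of the same number and time. The mean change was -0.20 ± 0.12 log2 (SE, 6 arrays against 6, with the block) and did not pass (limma, adjusted p = 0.58). Its level in control cells at 6 h spread from 5.87 to 6.92 between replicate numbers, wider than the change. Because the arrays pair by number, that spread does not measure the paired change. The 6 pair changes ran from -0.31 to -0.072 log2. Another 6 members were lower in all 6 pairs, namely Acadl, Hadhb, Etfdh, Ehhadh, Hsd17b4 and Bdh1, and 0 were higher in all 6. Of all probe sets, at any brightness, 6.23% were lower in all 6 pairs, and the share higher in all 6 was not computed. Some pairs lay close to no change, with -0.00056 in Hadhb and -0.0018 in Etfdh. Hsd17b4, the peroxisomal D-bifunctional protein, measured 10.82, 11.14 and 10.72 in control cells at 3 h, 10.69, 11.07 and 10.56 in treated cells at 3 h, 10.90, 11.26 and 10.80 in control cells at 6 h and 10.80, 11.12 and 10.65 in treated cells at 6 h. Its mean change was -0.12 ± 0.0453, with pair changes from -0.16 to -0.071. The limma fit with the block gave an unadjusted p of 0.019 and an adjusted p of 0.352. Its spread between replicate numbers was 0.47, which the block takes out.

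Cpt1a had the lowest change at 6 h, -0.32 ± 0.163 log2 with the block (limma, adjusted p = 0.664). Its control and treated arrays at 6 h overlapped across replicate numbers. Pdk4, the kinase that shuts off pyruvate oxidation, was next. Pdk4 measured 10.65, 9.93 and 9.77 in control cells at 3 h, 10.54, 10.17 and 9.54 in treated cells at 3 h, 10.13, 10.58 and 9.85 in control cells at 6 h and 9.89, 10.49 and 9.45 in treated cells at 6 h. The treated and control arrays overlapped at both times, and the change at 6 h was -0.24 ± 0.208 (limma with the block, adjusted p = 0.818). At the other end at 6 h stood Angptl4, a secreted inhibitor of lipoprotein lipase, at 0.29 ± 0.132 with the block (limma, adjusted p = 0.608). The difference of interferon effects between times was highest for Angptl4 (0.39) and Fgf21 (0.32) and lowest for Cpt1a (-0.23) and Pdk4 (-0.21), and none of these passed. Hadh, the short-chain hydroxyacyl-CoA dehydrogenase, had the highest change at 3 h, 0.04 ± 0.0917. It measured 11.09, 11.07 and 10.95 in control cells at 3 h, 11.12, 11.15 and 10.96 in treated cells at 3 h, 11.02, 11.10 and 10.61 in control cells at 6 h and 11.03, 10.99 and 10.52 in treated cells at 6 h. Replicate 3 was the lowest in all 4 groups, so the groups overlapped.

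Time in culture was the comparison in which members passed the test. Over control and treated cells together, 6 of 34 members (17.6%) differed between 6 h and 3 h without the block, 1 higher and 5 lower. The shares over all probe sets were 1.97% higher and 1.93% lower. With the replicate block 16 members (47.1%) passed, 2 higher and 14 lower, and all 6 of the first count were among them. The shares over all probe sets were then 8.43% higher and 10% lower. Without replicate 1, 2 or 3 the count with the block was 12, 9 and 10. These refits had fewer arrays, and their shares over all probe sets were not computed. The members' median change was -0.143 log2, against 0.00056 over all genes and -0.018 over the 7767 genes at least as bright as Ppara. The size of the time change was larger than that of the mean interferon change in 29 of 34 members. The share over all probe sets was not computed, so this count is no result about the members.

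In control cells alone, where no interferon was present, 0 members passed without the block, against 0.19% of all probe sets. At an unadjusted p under 0.05 in limma the counts were 1 higher and 5 lower, against 5.34% and 4.8% of all probe sets. With the block 9 members passed, 1 higher (Angptl4) and 8 lower, against 3.33% higher and 4.82% lower over all probe sets. The 8 that fell on their brightest probe sets were Acsl1, Cpt2, Crat, Acads, Acot2, Acat1, Bdh1 and Vnn1. For Acot2 another probe set, at 9.17, was higher at 6 h at every replicate number, so no direction holds for that gene. Without replicate 1, 2 or 3 the count with the block was 3, 1 and 0. The shares over all probe sets in these smaller fits were not computed. All 9 were among the 16 called over both treatments. These 2 comparisons share the control arrays. The median change in control cells was -0.141 log2, against -0.0018 over all genes.

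**Figure D3:**
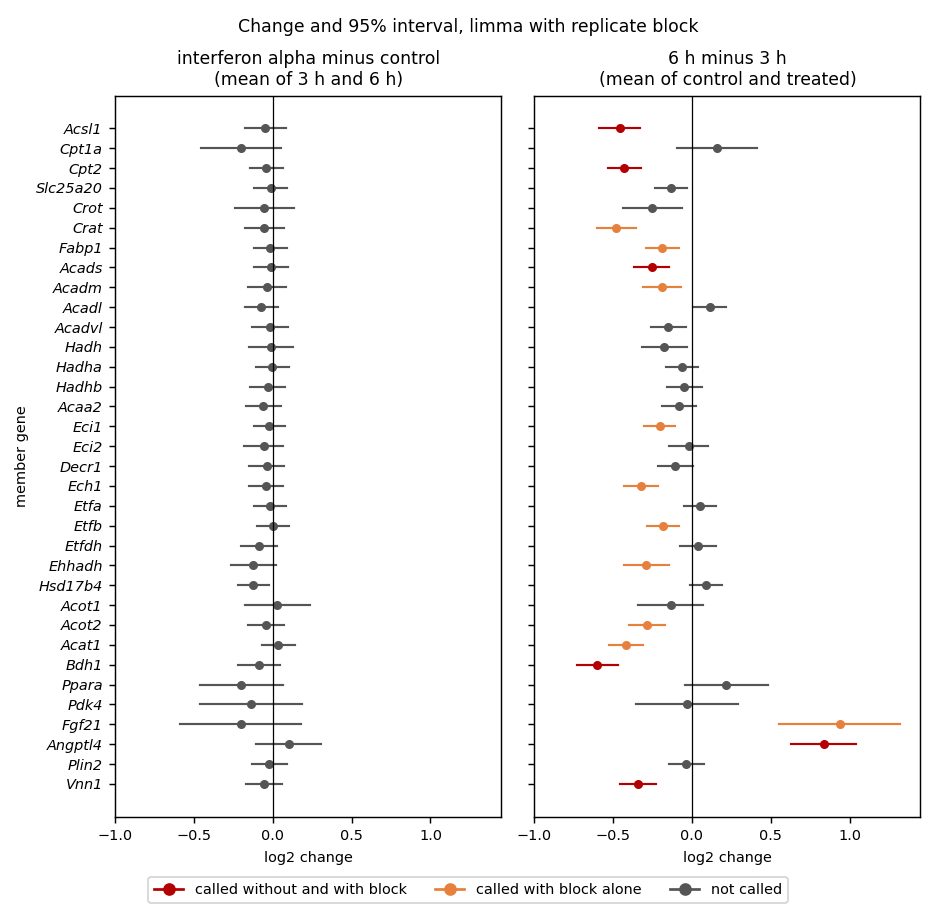
Log2 change of each member with its 95% interval from the limma fit with the replicate block, for interferon alpha minus control (left, mean of both times) and 6 h minus 3 h (right, mean of control and treated). Red marks members called without and with the block, orange those called with the block alone and grey those not called. All intervals on the left belong to members not called, and on the right 16 members are coloured, 14 of them below 0.

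Of the 7 members of fatty acid activation and transport, 4 fell with the block and 2 without it. The shares of all probe sets called lower were 10% and 1.93%. Acsl1, which joins long-chain fatty acids to coenzyme A, measured 11.52, 11.51 and 11.74 in control cells at 3 h, 11.49, 11.51 and 11.67 in treated cells at 3 h, 11.13, 11.15 and 11.15 in control cells at 6 h and 11.17, 11.05 and 11.02 in treated cells at 6 h. All 6 arrays at 6 h lay below all 6 arrays at 3 h. Acsl1 fell by 0.46 ± 0.0622 log2 (SE), to a level 1.38-fold lower (limma, adjusted p = 0.00432). Cpt2, the carnitine palmitoyltransferase of the inner membrane that hands the chain back to coenzyme A, measured 10.51, 10.46 and 10.43 in control cells at 3 h, 10.54, 10.47 and 10.42 in treated cells at 3 h, 10.10, 10.17 and 10.00 in control cells at 6 h and 10.03, 10.05 and 9.89 in treated cells at 6 h. These groups did not overlap either, and Cpt2 fell by 0.43 ± 0.0548 (limma, adjusted p = 0.00328). Cpt1a, the partner enzyme of the outer membrane, had 0.16 ± 0.115 with the block and was not called (adjusted p = 0.417).

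Crat, which moves acetyl groups to carnitine, measured 7.77, 7.90 and 7.16 in control cells at 3 h, 7.69, 7.87 and 6.96 in treated cells at 3 h, 7.10, 7.52 and 6.63 in control cells at 6 h and 7.29, 7.40 and 6.54 in treated cells at 6 h. Its groups overlapped across replicate numbers, but each number was lower at 6 h in both treatments. Crat fell by 0.48 ± 0.0571 with the block (limma, adjusted p = 0.000257, and 0.329 without it). Fabp1, the fatty acid-binding protein of the hepatocyte cytosol, measured 13.75, 13.87 and 13.56 in control cells at 3 h, 13.81, 13.85 and 13.55 in treated cells at 3 h, 13.63, 13.72 and 13.35 in control cells at 6 h and 13.63, 13.65 and 13.29 in treated cells at 6 h. The fall of 0.19 ± 0.0466 passed with the block (limma, adjusted p = 0.0158) and not without it (0.389). Slc25a20, the carnitine-acylcarnitine carrier (mean 8.84), and Crot, the peroxisomal carnitine octanoyltransferase (mean 8.68), were at -0.13 and -0.25 and were not called.

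In mitochondrial beta-oxidation, 4 of 12 members fell with the block, 1 of them also without it, and 0 rose. Of all probe sets, 10% were called lower and 8.43% higher with the block, and 1.93% lower without it. Acads, the short-chain acyl-CoA dehydrogenase, measured 9.23, 9.29 and 9.31 in control cells at 3 h, 9.23, 9.29 and 9.26 in treated cells at 3 h, 9.08, 9.05 and 8.92 in control cells at 6 h and 9.02, 9.03 and 8.97 in treated cells at 6 h. The 6 h arrays all lay below the 3 h arrays, and Acads fell by 0.26 ± 0.0494 (limma, adjusted p = 0.0192). With the block, that call was lost without replicate 2 (adjusted p = 0.0534) or replicate 3 (0.0789) in limma. Acadm, the medium-chain enzyme, measured 11.41, 11.49 and 11.36 in control cells at 3 h, 11.39, 11.52 and 11.29 in treated cells at 3 h, 11.35, 11.37 and 11.01 in control cells at 6 h and 11.30, 11.27 and 11.00 in treated cells at 6 h. It fell by 0.19 ± 0.0547 with the block (limma, adjusted p = 0.0336, and 0.292 without it). The long-chain enzymes did not pass: Acadl (mean 11.79) had 0.11 and Acadvl (mean 10.40) had -0.15. Acadl was higher and Acadvl lower at 6 h in all 6 pairs of the same number and treatment.

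Ech1, a dienoyl-CoA isomerase for unsaturated chains, measured 11.68, 11.44 and 11.68 in control cells at 3 h, 11.74, 11.45 and 11.72 in treated cells at 3 h, 11.43, 11.25 and 11.38 in control cells at 6 h and 11.40, 11.08 and 11.22 in treated cells at 6 h. Within each treatment the 6 h arrays lay below the 3 h arrays. Ech1 fell by 0.32 ± 0.049 with the block (limma, adjusted p = 0.00101), and just missed the threshold without it (0.0558). Eci1, an enoyl-CoA isomerase of the same kind of chain, measured 12.01, 12.15 and 11.80 in control cells at 3 h, 12.00, 12.18 and 11.81 in treated cells at 3 h, 11.83, 12.00 and 11.60 in control cells at 6 h and 11.79, 11.92 and 11.56 in treated cells at 6 h. Its probe set is of the type that can detect several transcripts. Eci1 fell by 0.21 ± 0.0449 with the block (limma, adjusted p = 0.00787, and 0.358 without it). The members not called ranged from -0.18 (Hadh) to 0.11 (Acadl). They include both subunits of the trifunctional protein, Hadha (mean 10.52, change -0.06) and Hadhb (mean 11.52, change -0.05), and Acaa2 (-0.08). The isomerase Eci2 (mean 10.47) had -0.02, and the dienoyl-CoA reductase Decr1 (mean 11.87) had -0.11.

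The 2 subunits of the electron transfer flavoprotein differed in their calls. Etfb measured 11.30, 11.43 and 11.20 in control cells at 3 h, 11.35, 11.48 and 11.18 in treated cells at 3 h, 11.20, 11.27 and 10.97 in control cells at 6 h and 11.18, 11.25 and 10.95 in treated cells at 6 h. Each number was lower at 6 h in both treatments, and Etfb fell by 0.19 ± 0.0462 with the block (limma, adjusted p = 0.0159, and 0.299 without it). Etfa measured 11.54, 11.69 and 11.49 in control cells at 3 h, 11.51, 11.66 and 11.46 in treated cells at 3 h, 11.58, 11.73 and 11.53 in control cells at 6 h and 11.64, 11.69 and 11.49 in treated cells at 6 h. It was higher at 6 h in all 6 pairs, by 0.05 on average, and was not called (limma with the block, adjusted p = 0.536). The difference between the subunits was not tested. Etfdh had 0.04 and was not called.

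Of the 2 peroxisomal enzymes, Ehhadh, the L-bifunctional enzyme, measured 10.93, 11.31 and 10.80 in control cells at 3 h, 10.75, 11.26 and 10.62 in treated cells at 3 h, 10.77, 11.05 and 10.31 in control cells at 6 h and 10.70, 10.92 and 10.17 in treated cells at 6 h. Replicate 2 was the highest in every group, and each number was lower at 6 h. Ehhadh fell by 0.29 ± 0.0646 with the block (limma, adjusted p = 0.00877, and 0.473 without it). Hsd17b4 had 0.09 and was not called, although it was higher at 6 h in all 6 pairs. Acot2, the mitochondrial thioesterase, measured 9.62, 9.99 and 10.32 in control cells at 3 h, 9.50, 9.96 and 10.29 in treated cells at 3 h, 9.40, 9.64 and 10.00 in control cells at 6 h and 9.36, 9.56 and 10.02 in treated cells at 6 h. On this probe set Acot2 fell by 0.28 ± 0.0519 with the block (limma, adjusted p = 0.00297, and 0.501 without it). Another probe set, at 9.17, rose, so no direction holds for the gene.

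Both ketone synthesis members fell with the block, Bdh1 also without it. The shares of all probe sets called lower were 10% with the block and 1.93% without it. Bdh1, which reduces acetoacetate to 3-hydroxybutyrate, measured 9.01, 8.76 and 9.11 in control cells at 3 h, 8.97, 8.71 and 9.07 in treated cells at 3 h, 8.58, 8.26 and 8.38 in control cells at 6 h and 8.50, 8.01 and 8.32 in treated cells at 6 h. The 6 h arrays all lay below the 3 h arrays, and no other member had a lower time change. Bdh1 fell by 0.60 ± 0.106 log2, to a level 1.52-fold lower (limma, adjusted p = 0.0134). Acat1, the thiolase that makes acetoacetyl-CoA, measured 11.15, 10.58 and 10.81 in control cells at 3 h, 11.18, 10.61 and 10.77 in treated cells at 3 h, 10.72, 10.13 and 10.35 in control cells at 6 h and 10.87, 10.19 and 10.33 in treated cells at 6 h. Replicate 1 stood above the others in all groups, so that groups overlapped, but each number fell in both treatments. Acat1 fell by 0.42 ± 0.0483 with the block (limma, adjusted p = 0.000219, and 0.204 without it).

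Among the receptor Ppara and 5 genes known as its targets or as fasting genes, 2 rose and 1 fell with the block. Of all probe sets, 8.43% were called higher and 10% lower in that fit. Angptl4 measured 10.76, 10.73 and 10.14 in control cells at 3 h, 10.80, 10.60 and 9.94 in treated cells at 3 h, 11.32, 11.32 and 10.91 in control cells at 6 h and 11.32, 11.83 and 11.28 in treated cells at 6 h. All arrays at 6 h lay above those at 3 h within each treatment. Angptl4 rose by 0.84 ± 0.176 log2, 1.78-fold (limma, adjusted p = 0.0267). At 6 h, leaving out control replicate 1 (adjusted p = 0.0693), control replicate 2 (0.0569) or treated replicate 2 (0.0586) ended the call in limma. Fgf21 measured 8.35, 7.68 and 9.23 in control cells at 3 h, 8.17, 7.10 and 8.91 in treated cells at 3 h, 9.95, 7.92 and 9.74 in control cells at 6 h and 9.90, 8.21 and 9.36 in treated cells at 6 h. Replicate 2 was the lowest in every group, and each number was higher at 6 h in both treatments. Fgf21 rose by 0.94 ± 0.175 with the block (limma, adjusted p = 0.0033, and 0.349 without it), and in control cells alone it was not called with the block (adjusted p = 0.0832).

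Vnn1, the pantetheinase that frees a precursor of coenzyme A, went the other way. It measured 9.77, 9.67 and 9.85 in control cells at 3 h, 9.65, 9.69 and 9.85 in treated cells at 3 h, 9.40, 9.36 and 9.58 in control cells at 6 h and 9.43, 9.18 and 9.49 in treated cells at 6 h. Within each treatment the 6 h arrays lay below the 3 h arrays, and Vnn1 fell by 0.34 ± 0.0739 (limma, adjusted p = 0.0301). That limma call was lost in 8 of 19 other settings, each leaving out a single array (adjusted p = 0.0536 to 0.0741): any 1 treated array at 3 h, control replicate 1 or 3 at 3 h, control replicate 1 or 2 at 6 h, or treated replicate 2 at 6 h. Plin2, the coat protein of lipid droplets, measured 13.04, 12.67 and 13.08 in control cells at 3 h, 12.98, 12.54 and 13.03 in treated cells at 3 h, 13.08, 12.47 and 12.96 in control cells at 6 h and 12.98, 12.58 and 13.06 in treated cells at 6 h. Its groups overlapped throughout, with replicate 2 the lowest, and the time change was -0.04. Ppara itself had 0.22 and Pdk4 -0.03, and neither was called. Ppara spread more at 6 h than at 3 h, with an SD of 0.53 against 0.07 in control cells (n = 3 each).

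**Figure D4:**
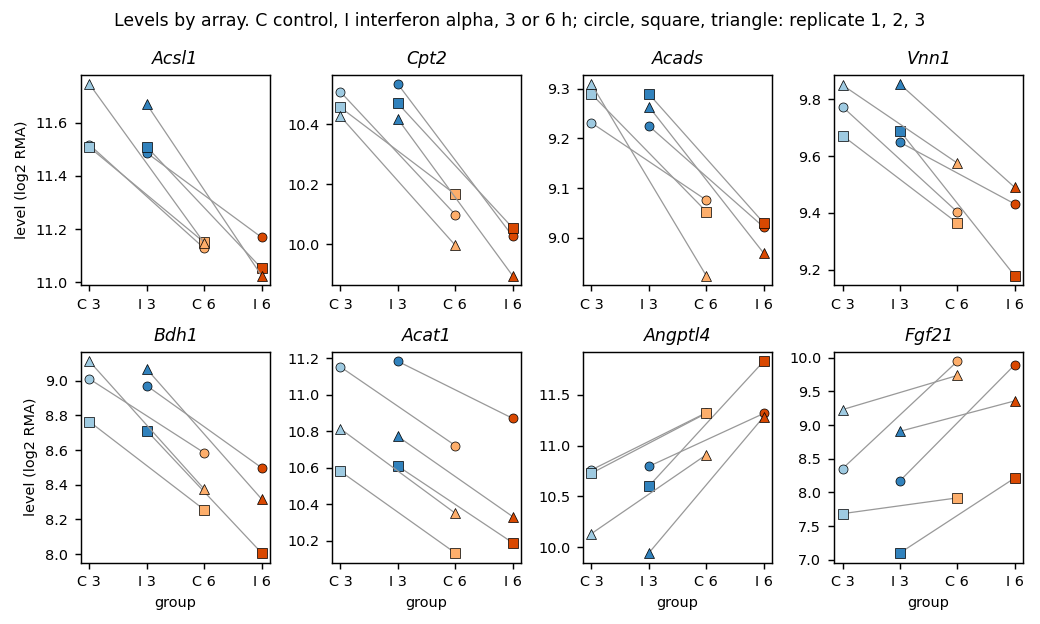
Levels of 8 members on every array as log2 RMA values, for control (C) and interferon alpha (I) at 3 h and 6 h. Circles, squares and triangles are replicates 1, 2 and 3, and grey lines join the same number and treatment across time. Each line falls from 3 h to 6 h for Acsl1, Cpt2, Acads, Vnn1, Bdh1 and Acat1 and rises for Angptl4 and Fgf21, and the vertical axes differ between panels and do not start at 0.

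Counting pairs of the same number and treatment, 19 members were lower at 6 h in all 6 pairs, 5 were higher in all 6 (Acadl, Etfa, Hsd17b4, Fgf21 and Angptl4) and 10 were mixed. Of all probe sets 10.9% were lower and 9.51% higher in all 6. In both treatments the 6 h arrays lay wholly below the 3 h arrays for 6 members, Acsl1, Cpt2, Acads, Ech1, Bdh1 and Vnn1, and wholly above for Angptl4. Of all probe sets 2.82% lay wholly below and 2.75% wholly above. The summed level of the 9 hepatocyte markers overlapped between times, between 16.54 and 16.65 at 3 h and between 16.49 and 16.65 at 6 h. That sum is weighted to the brightest markers, and its overlap leaves out the pairing by number. Apoa1 and Serpina1 were lower at 6 h in all 6 pairs, with lowest pairs of -0.18 and -0.09 log2. The other hepatocyte markers were mixed.

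Members with more than 1 probe set did not always agree. For 12 members there were 16 further probe sets. The second probe set of Bdh1 also fell, by 0.58 (limma without the block, adjusted p = 0.00274), and that of Acsl1 at 10.43 fell by 0.30 (0.0432). For Acot2 the brightest probe set fell, while another at 9.17 rose by 0.52 with the block (limma, adjusted p = 0.00228), so that no direction holds for the gene. For Cpt1a a further probe set at 9.03 rose by 0.49 with the block (limma, adjusted p = 0.00559), where the brightest had 0.16 and was not called. For Plin2 a further one at 8.44 fell by 0.38 with the block (limma, adjusted p = 0.000871), against -0.04 on the brightest. The other probe set of Acat1, at 7.54, was at -0.04 and was not called.

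Promoter sequences are shown for members called with time and for a pair of neighbouring genes not called, because Ppara binds DNA at DR1 elements and interferon alpha acts through the interferon-stimulated response element (ISRE). RefSeq gave the 250 bases before the start in build GRCr8 for 29 of the 34 members, in 30 windows, and none for Acaa2, Acadl, Decr1, Ech1 and Vnn1. The DR1 search used AGGTCANAGGTCA, that is AGGTCA repeated with any 1 base between, on both strands with up to 2 mismatches. A match was found in 4 of 29 members (13.8%) and in 1053 of 33469 promoters (3.15%). The ISRE search used GAAANNGAAA on both strands, with 0 matches among the 29 and 1140 among all promoters (3.41%). A match is a description of letters and was not tested as a site. The 4 matches, written on the strand that is most like AGGTCA, were as follows.
Fabp1, chr4:104749263-104749275: AGGCCATAGGTCA
Acadvl, chr10:55236710-55236722: AGGTCAGTGGTCA
Crat, chr3:34087310-34087322: AGGACACCGGTCA
Etfa, chr8:64788107-64788119: AGGGCAAAGGTAA

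The match in Fabp1 lay 77 to 65 bases before the start and, like that in Acadvl (17 to 5 bases), had 1 mismatch, while those in Crat (223 to 211) and Etfa (154 to 142) had 2. Fabp1 and Crat fell with time with the block, and Acadvl and Etfa were not called. At 6 h Acadvl was lower in all 6 pairs (-0.15 on average) and Etfa higher in all 6 (0.05). The windows of Fabp1 and Crat follow, 5′ to 3′ on the strand of the gene with the match in capitals. In Fabp1 the match is on the opposite strand, so that the capitals are the reverse complement of the site above.
Fabp1, chr4:104749090-104749339, + strand: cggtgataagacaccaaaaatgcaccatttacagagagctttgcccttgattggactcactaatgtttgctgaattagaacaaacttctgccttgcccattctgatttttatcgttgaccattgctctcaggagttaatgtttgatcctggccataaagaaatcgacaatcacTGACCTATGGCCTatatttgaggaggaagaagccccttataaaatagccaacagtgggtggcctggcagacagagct
Crat, chr3:34087100-34087349, − strand: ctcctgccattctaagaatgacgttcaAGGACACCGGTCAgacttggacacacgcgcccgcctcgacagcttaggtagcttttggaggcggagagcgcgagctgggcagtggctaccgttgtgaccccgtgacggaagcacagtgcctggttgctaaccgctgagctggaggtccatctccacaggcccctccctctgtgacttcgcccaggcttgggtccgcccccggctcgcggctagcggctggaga

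The windows of Bdh1, with the lowest time change, and Angptl4, which rose without and with the block, are shown next. Neither held a match to either motif.
Bdh1, chr11:82842637-82842886, − strand: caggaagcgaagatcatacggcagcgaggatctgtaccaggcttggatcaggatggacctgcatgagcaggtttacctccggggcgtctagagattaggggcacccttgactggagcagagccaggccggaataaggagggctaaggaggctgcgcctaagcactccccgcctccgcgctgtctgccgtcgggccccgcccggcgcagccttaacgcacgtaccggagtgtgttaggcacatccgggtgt
Angptl4, chr7:15258682-15258931, − strand: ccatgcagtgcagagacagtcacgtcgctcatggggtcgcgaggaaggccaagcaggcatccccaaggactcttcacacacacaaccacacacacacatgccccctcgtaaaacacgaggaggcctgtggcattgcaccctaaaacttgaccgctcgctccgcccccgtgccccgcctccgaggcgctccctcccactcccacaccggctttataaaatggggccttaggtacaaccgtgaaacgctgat

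Hadha and Hadhb, the subunits of the trifunctional protein, start back to back on chromosome 6, and the window of Hadhb on the − strand (chr6:31907501-31907750) overlaps that of Hadha. Neither gene was called in any comparison, though Hadha was lower at 6 h in all 6 pairs, and their levels did not follow the same replicate order, since replicate 3 was the highest in all 4 groups for Hadhb, and replicate 2 was in some groups for Hadha.
Hadha, chr6:31907551-31907800, + strand: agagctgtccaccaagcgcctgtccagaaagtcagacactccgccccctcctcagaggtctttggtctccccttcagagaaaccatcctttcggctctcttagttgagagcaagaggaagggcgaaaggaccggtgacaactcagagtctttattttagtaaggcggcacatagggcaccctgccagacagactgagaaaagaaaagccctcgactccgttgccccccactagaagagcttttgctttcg

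A wider list of 70 further genes of the pathway and its control was measured in the same fit. With interferon alpha 0 of 70 were called in any comparison without or with the block, where at most 1.1% of all probe sets were called. A count of 0 of 70 is near such shares and is no result about the list. The median of the mean change was -0.029 log2. At an unadjusted p under 0.05 for the mean of both times the counts were 0 without the block and, with it, 2 higher and 7 lower, against 4.88% and 5.88% of all probe sets. With time, 1 rose and 3 fell without the block, against 1.97% higher and 1.93% lower of all probe sets. With the block 4 rose and 27 fell, against 8.43% and 10%, and the median change was -0.105. In control cells alone 3 rose and 15 fell with the block, against 3.33% higher and 4.82% lower of all probe sets.

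Of the 4 genes that passed without the block, Pnpla2, the lipase that starts the breakdown of stored triglyceride, rose by 0.61 ± 0.137 (limma, adjusted p = 0.0342). Abcd3, a peroxisomal transporter of acyl-CoA, fell by 0.69 ± 0.132 (limma, adjusted p = 0.0189). Decr2, the peroxisomal dienoyl-CoA reductase, fell by 0.42 ± 0.0942 (0.0348), and Aacs, which activates acetoacetate for lipid synthesis, by 0.41 ± 0.0730 (0.0131). With the block alone the 3 others that rose were G0s2, the inhibitor of Pnpla2 (0.88), Acot12, a cytosolic acetyl-CoA thioesterase (0.53), and Acox3, a peroxisomal oxidase (0.36). The 24 that fell with the block alone ranged from -0.69 (Acot4, a peroxisomal thioesterase) to -0.20 (Etfrf1).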

How the data were processed

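The 12 arrays measured total RNA of primary rat hepatocytes, with groups and replicate numbers taken from the sample titles. The authors deposited 1 log2 value for each probe set and array, computed by RMA (affy, R 2.10.0), per the submitters' processing notes. Because RMA equalizes brightness between arrays, a change common to most transcripts would not be seen. The 57 control probe sets were left out. Of the 31042 tested, 20826 had 1 gene symbol in the platform annotation, 436 several and 9780 none listed, and only the first kind was named.

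Groups were compared by limma 3.58.1 under R 4.3.3, using lmFit and eBayes on 4 group means (8 residual degrees of freedom), two-sided, with Benjamini-Hochberg adjustment over all 31042 probe sets and calls at an adjusted p under 0.05. The fit without the block was run on simulated data for interferon alpha at 6 h only. The simulated noise was independent between arrays, so that run cannot speak for the fit with the block. The pairing by replicate number was checked on deviations from group means: correlations were 0.651 to 0.829 within a number and time, 0.479 to 0.736 within a number across times, and -0.562 to -0.0747 between numbers. The numbers therefore pair the arrays, and the fit with the number as a block (6 residual degrees of freedom) is given where it changes a call. Labels give no hybridisation or scan batch. With 3 arrays per group, their number limits the precision. Named with values on every array were members called in any comparison, the 2 highest and 2 lowest per comparison, and the brightest member of each role. The rule for the members uses no measured value, but members and lists were chosen with earlier results of these data known. Other settings are listed in the closing section.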

Additional observations from a re-analysis of the deposited data

Results flagged for a closer look

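Ech1, the dienoyl-CoA isomerase, was higher with interferon alpha in all 3 pairs at 3 h and lower in all 3 pairs at 6 h. It was picked by this pattern from the 34 members, and the share of all probe sets showing it was not computed. The interferon effect at 6 h minus that at 3 h was -0.16 log2. The test of that difference did not pass, with an adjusted p of 1 in limma without the replicate block and 0.999 with it. At 3 h the effect was 0.04 ± 0.0693 and at 6 h -0.12 ± 0.0693 (SE with the block, 3 arrays against 3).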

How the results depend on the processing

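For the mean time change, 6 members were called without the block and 16 with the replicate block, which pairs the arrays by number. Without replicate 1, 2 or 3 and with the block kept, the counts were 12, 9 and 10, and over all fits that left out arrays they ran from 4 to 12. Limma with a trend gave 5, a filter on dim probe sets 7, centring each array on its median 7 and any probe set of a gene 6. In control cells the time count was 0 without and 9 with the replicate block, and 0 to 3 without single arrays or numbers. Shares of all probe sets were not computed for fits without some arrays, with the trend, the filter or the centring. These counts therefore cannot tell a change in the members from one in all probe sets. The 4 interferon counts stayed at 0 under all settings run on the brightest probe sets, and with any probe set of a gene without the block. With the block within each time, the other probe set of Cpt1a was called lower at 6 h and for the mean. Acsl1, Cpt2 and Bdh1 kept their call in all 19 other settings. Acads lost it with the trend (adjusted p = 0.0551) and with the block kept without replicate 2 (0.0534) or 3 (0.0789). Angptl4 lost it without control replicate 1 (0.0693) or 2 (0.0569) or treated replicate 2 (0.0586) at 6 h. Vnn1 lost it without any 1 treated array at 3 h, control replicate 1 or 3 at 3 h, control replicate 1 or 2 at 6 h or treated replicate 2 at 6 h. The cause was not tested. The median interferon change of the members ran from -0.069 to -0.010 for the mean, -0.060 to 0.015 at 3 h and -0.122 to 0.027 at 6 h. Fits on the compared groups alone were not run for means over times or treatments, and a block within each time was not possible for time changes.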
